A study of Homo sapiens with 6 samples.

Results

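The 36 genes described here encode aminoacyl-tRNA synthetases, the enzymes that join each amino acid to its tRNA. They were taken by symbol from a list of 20 cytosolic and 16 mitochondrial enzymes, and all 36 were found among the 19940 gene rows of the tables. Names that end in 2 belong to the mitochondrial class. GARS and KARS, the glycyl and lysyl enzymes, serve both compartments and were kept with the cytosolic class.

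Total RNA, cleared of ribosomal RNA, was sequenced from U2OS-GFP-DCP1a cells, a human osteosarcoma line under G418 selection that stably overexpresses a GFP fusion of DCP1A, a decapping protein of P-bodies. All groups carried this transgene, and the labels do not say whether the line is 1 clone. The 2 isotonic libraries came from medium with 150 mM Na+ and the 2 hypertonic libraries from 4 h in medium with 300 mM Na+. The 2 rescue libraries came from 4 h of hypertonic medium followed by 4 h in isotonic medium, so return to isotonic medium and the later time of harvest, with its extra medium change, cannot be told apart. The labels do not say that libraries of a group were separate cultures, so the p-values reflect only how far these libraries differ. Between the rescue libraries that may be technical variation alone. Over 17388 genes the SD of the log2 ratio of scaled counts was 0.17 between the rescue libraries. It was 0.96 between the isotonic and 0.95 between the hypertonic libraries, and this spread enters the p-values.

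Each synthetase activates its amino acid with ATP and transfers it to the matching tRNA, and so sets the meaning of the genetic code. In the cytosol of human cells several of these enzymes are held in a multisynthetase complex by the scaffold proteins AIMP1, AIMP2 and EEF1E1. The others are not part of it. Mitochondrial enzymes are mostly encoded by separate nuclear genes and imported. Many cytosolic synthetase genes are known targets of ATF4, the transcription factor of the amino acid response and integrated stress response, which binds C/EBP-ATF response elements.

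Promoter sequences are shown because that element is a known control point of several cytosolic genes. Of the 6 genes shown, IARS, MARS and NARS passed in rescue against isotonic and AARS, CARS and TARS did not. In the whole cytosolic class 11 of 20 passed, all lower, and 13.5% of all genes were lower. RefSeq promoter windows (GRCh38.p14, 250 bases before to 50 after the start) were matched for 30 of the 36 genes, 16 cytosolic and 14 mitochondrial. No window was matched for DARS, LARS, VARS, YARS, AARS2 and VARS2, so these were not searched. The element's core was searched as TGATGNAA on both strands. It was found in 6 of 16 cytosolic windows (AARS, CARS, IARS, MARS, NARS and TARS), in 1 of 14 mitochondrial windows (YARS2), and in 3.62% of all 35116 windows of the table. The more specific form TTGCATCA, whose reverse complement TGATGCAA fixes the N of the core, was found in the same number of cytosolic windows, 6, in 0 mitochondrial windows and in 0.87% of all windows. A match describes letters only, and no match says only that these letters are not in the window.

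The 6 cytosolic stretches follow, each read 5′ to 3′ on the strand of the gene, with the match in capitals and 20 bases on either side. They lie at chr16:70289666-70289713 (AARS, minus strand), chr11:3057398-3057445 (CARS, minus), chr9:92293683-92293730 (IARS, minus), chr12:57488044-57488091 (MARS, plus), chr18:57621795-57621842 (NARS, minus) and chr5:33440947-33440994 (TARS, plus).
AARS: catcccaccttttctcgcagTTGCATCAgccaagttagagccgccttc
CARS: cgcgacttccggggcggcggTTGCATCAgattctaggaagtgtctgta
IARS: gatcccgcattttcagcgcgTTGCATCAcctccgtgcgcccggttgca
MARS: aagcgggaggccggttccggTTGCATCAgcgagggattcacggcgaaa
NARS: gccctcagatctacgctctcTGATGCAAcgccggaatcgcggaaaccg
TARS: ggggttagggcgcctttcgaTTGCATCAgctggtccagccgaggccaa
The first base of the match lay at position -187 in AARS, -13 in IARS, -4 in MARS, -2 in CARS, 3 in TARS and 15 in NARS, relative to the RefSeq start. The GENCODE models of MARS (start at 57475445), NARS (57622213) and TARS (33440696) begin further upstream, outside these windows.

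Total counts ranged from 90196278 to 105991428 per library, at which 3 counts correspond to 0.0283 to 0.0333 CPM (counts scaled by the library total). Bone lineage markers were present: COL1A1, a collagen chain, stood between 828 and 1175 CPM and SPARC, a matrix glycoprotein, between 687 and 744 CPM. COL1A2, the partner chain, was below 0.2 CPM. Summed over 5 leukocyte markers the level was 0.47 to 2.99 CPM outside rescue and 3.01 and 3.59 CPM in rescue, with CD3E at 0 counts in the 4 libraries outside rescue, which allows at most 0.0333 CPM. Intervals of this kind cover counting error only. Summed epithelial markers (4 genes) stood at 4.20 to 6.14 CPM outside rescue and at 16.1 and 15.0 CPM in rescue, and endothelial markers (4 genes) at 7.93 to 28.97 and at 32.3 and 31.4 CPM. The part of these shifts in the results below was not tested. In bulk RNA, less transcript per cell and fewer cells with the transcript cannot be told apart.

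In these genes, libraries that share the label isotonic or hypertonic were not the most alike. Over the 36 members the SD of the log2 CPM ratio was 0.62 between isotonic 1 and isotonic 2 and 0.63 between hypertonic 1 and hypertonic 2. Between isotonic 1 and hypertonic 2 it was 0.06, with no member further apart than 1.16-fold, and between isotonic 2 and hypertonic 1 it was 0.06, with a maximum of 1.14-fold. Rescue 1 and rescue 2 differed with an SD of 0.09. The mean chi-square per member was 3.81 for isotonic 1 with hypertonic 2, 2.78 for isotonic 2 with hypertonic 1 and 12.7 for the rescue libraries, where read sampling alone gives about 1. All 6 libraries were therefore kept as separate samples under their labels. Whether labels were exchanged between isotonic and hypertonic libraries was not tested, and an exchange would change what every isotonic or hypertonic value below stands for. Results for rescue are given with all libraries and with the isotonic and hypertonic libraries of only 1 replicate number.

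Cytosolic synthetase transcripts were lower in rescue. Their summed level was 3151 and 2975 CPM in isotonic 1 and 2, 2986 and 3127 CPM in hypertonic 1 and 2, and 2169 and 2130 CPM in rescue 1 and 2. The sums of both rescue libraries lay below those of the other 4. The order of the mitochondrial sums depended on the scaling. By library total the mitochondrial sum was 735 and 556 CPM in isotonic, 552 and 733 CPM in hypertonic, and 584 and 623 CPM in rescue, between the high and the low libraries of the other groups. With TMM scaling it was 745 and 626 CPM in isotonic, 624 and 748 CPM in hypertonic, and 511 and 540 CPM in rescue, with both rescue libraries below the other 4.

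In rescue against isotonic, 11 of 20 cytosolic genes fell and 0 rose by the edgeR quasi-likelihood test with TMM scaling and a Benjamini-Hochberg adjusted p under 0.05 over 18208 genes. Across all genes tested 13.5% were lower and 9.61% higher. The 11 were YARS, IARS, GARS, MARS, EPRS, KARS, NARS, VARS, LARS, HARS and RARS. FARSB, FARSA, AARS and TARS did not pass, with log2 fold changes of -1.15, -1.04, -0.86 and -0.81 and SE of 0.38, 0.26, 0.26 and 0.44. Which genes passed thus depends also on the spread between libraries that share the label isotonic or hypertonic. The median log2 fold change of the 20 was -0.82, beside -0.02 over all genes, and all 20 estimates were below 0, from -1.28 for YARS to -0.13 for SARS. Of the 16 mitochondrial genes, 3 fell (IARS2, YARS2 and VARS2) and 0 rose, with a median of -0.17, beside 13.5% of all genes lower. Every call rests on 2 libraries a group: without isotonic 1, isotonic 2, rescue 1 or rescue 2, or with the replicate number as a block, none of the 36 and no gene of the genome-wide test passed.

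**Figure D1:**
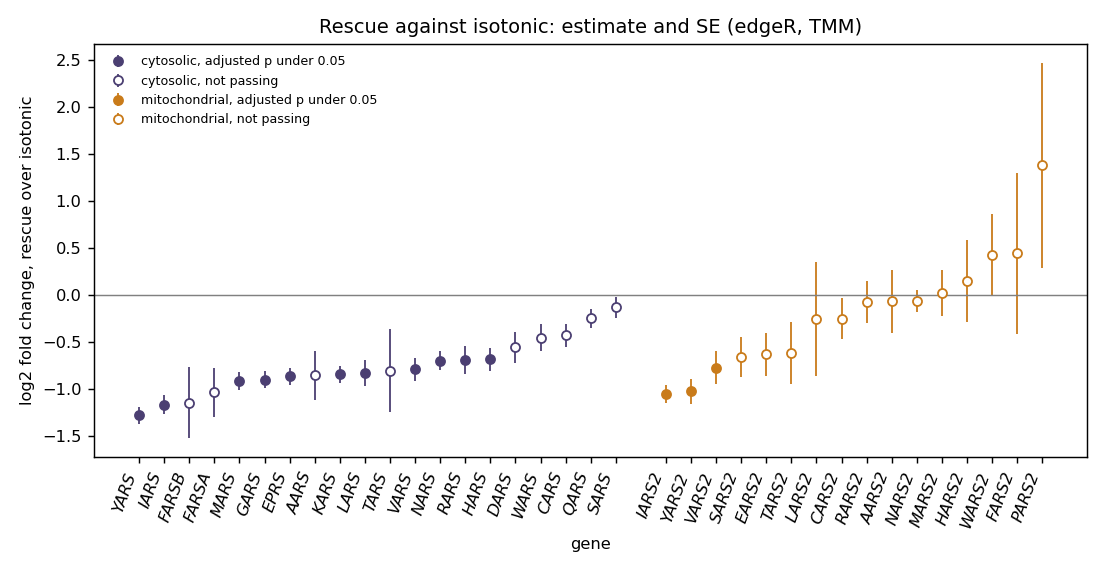
Log2 fold change of rescue over isotonic for each gene (edgeR with TMM scaling; bars are the SE), cytosolic genes at the left and mitochondrial genes at the right, filled where the adjusted p was under 0.05. All 20 cytosolic estimates lie below 0, while the mitochondrial ones run from -1.06 for IARS2 to 1.38 for PARS2 with wide bars for the genes that differ between isotonic 1 and 2.

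Within 1 replicate number the isotonic and hypertonic libraries are lone samples, assumed to vary like the rescue libraries. With number 1 alone, rescue was lower than isotonic 1 in 19 of 20 cytosolic genes, where 38.6% of all genes were lower. With number 2 alone, rescue was lower than isotonic 2 in 20 of 20, where 40.1% of all genes were lower. The medians were -0.83 and -0.74. The exception with number 1 was SARS, with a log2 fold change of -0.06 (SE 0.07). In the mitochondrial class 11 of 16 were lower and 2 higher with number 1 (40.5% of all genes higher), and 7 lower and 6 higher with number 2 (40.7% of all genes higher).

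Scaling bears on these values. With library totals alone the median of all genes in rescue against isotonic was 0.27 on the log2 scale, and with upper quartile scaling 0.19, against -0.02 with TMM. Over all genes the edgeR calls were 1749 higher and 2453 lower with TMM, 2050 higher and 1095 lower with library totals, and 2091 higher and 1404 lower with upper quartile scaling. The cytosolic count went from 11 lower to 8 and 9 under these scalings (6.01% and 7.71% of all genes lower), with 0 higher. By CPM without further scaling, both rescue libraries lay below all 4 others in 16 of 20 cytosolic and 4 of 16 mitochondrial genes, where this held for 22.8% of 17388 genes. They lay above all 4 in 1 cytosolic gene (SARS) and 4 mitochondrial genes (MARS2, NARS2, PARS2 and WARS2), where this held for 46.2% of genes. With TMM-scaled CPM the counts below were 20 and 6 (35.1% of all genes) and those above 0 and 1 (33.6%), the 1 being PARS2.

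The largest fall among the 20 cytosolic genes was that of YARS, the tyrosyl enzyme (chromosome 1, 32775237 to 32818153, GRCh38). Its level was 154 and 138 CPM in isotonic, 137 and 157 CPM in hypertonic and 73.4 and 73.8 CPM in rescue. The rescue values are close to each other and far below all others, a 2.43-fold lower level than isotonic (log2 -1.28, SE 0.09; edgeR quasi-likelihood test, adjusted p = 0.00834). The row of YARS overlaps that of S100PBP on the opposite strand.

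IARS, the isoleucyl enzyme of the multisynthetase complex (chromosome 9, 92210207 to 92293756), was at 405 and 390 CPM in isotonic, 389 and 394 CPM in hypertonic, and 218 and 216 CPM in rescue. The 4 libraries outside rescue were nearly level and rescue lay far below them (2.25-fold lower than isotonic, log2 -1.17, SE 0.10; edgeR, adjusted p = 0.00891). With number 1 and with number 2 alone the fall was 2.18-fold and 2.33-fold.

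GARS and KARS, which supply charged tRNA to cytosol and mitochondria alike, fell with the cytosolic class. GARS (chromosome 7, 30594681 to 30634033) was at 339 and 295 CPM in isotonic, 291 and 337 CPM in hypertonic and 208 and 208 CPM in rescue (1.87-fold lower than isotonic, edgeR, adjusted p = 0.00948). KARS (chromosome 16, 75627474 to 75648643) was at 169 and 148 CPM in isotonic, 145 and 168 CPM in hypertonic and 110 and 105.7 CPM in rescue (1.80-fold lower, edgeR, adjusted p = 0.0109). For neither gene did the groups overlap with rescue. Without them 9 of the other 18 cytosolic genes fell. The KARS row overlaps that of TERF2IP, a telomere protein gene.

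Other members of the complex were called as well. EPRS, which carries the glutamyl and prolyl activities on 1 chain, was at 208 and 188 CPM in isotonic, 190 and 203 CPM in hypertonic and 135 and 131 CPM in rescue (log2 -0.87, SE 0.09; edgeR, adjusted p = 0.0103). MARS, the methionyl enzyme, was at 168 and 155 CPM in isotonic, 160 and 165.8 CPM in hypertonic and 106.4 and 103 CPM in rescue (log2 -0.92, SE 0.10; edgeR, adjusted p = 0.0103). The MARS row overlaps those of ARHGAP9 and DDIT3 on the opposite strand, so its value is uncertain. LARS, the leucyl enzyme, was at 164 and 125 CPM in isotonic, 125 and 162 CPM in hypertonic and 99.0 and 99.0 CPM in rescue, and fell by 0.83 on the log2 scale (edgeR, adjusted p = 0.0216). RARS, the arginyl enzyme, was at 81.0 and 64.2 CPM, 62.3 and 83.3 CPM, and 55.1 and 54.5 CPM, and fell by 0.69 (edgeR, adjusted p = 0.0341). Rescue lay below every other library in both.

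Of the 8 enzyme genes of the complex, 6 fell in rescue against isotonic, where 13.5% of all genes were lower. DARS, the aspartyl enzyme, was at 120 and 88.4 CPM in isotonic, 86.2 and 119 CPM in hypertonic and 85.8 and 86.7 CPM in rescue, so that rescue overlaps the low libraries, and it did not pass (log2 -0.56, SE 0.17; edgeR, adjusted p = 0.0798). QARS, the glutaminyl enzyme, was at 111 and 102 CPM in isotonic, 107 and 114 CPM in hypertonic and 114 and 105 CPM in rescue, where the groups overlap (log2 -0.25, SE 0.10 with TMM; edgeR, adjusted p = 0.145). By unscaled CPM it was thus level, while most of the other members of the complex were lower.

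The scaffold genes did not follow the enzymes. AIMP1 was at 74.1 and 34.8 CPM in isotonic, 35.0 and 74.7 CPM in hypertonic, and 60.6 and 58.0 CPM in rescue. AIMP2 was at 152 and 78.7 CPM, 81.0 and 147 CPM, and 152 and 151 CPM in the same order. EEF1E1 was at 47.1 and 23.7 CPM, 22.3 and 45.3 CPM, and 43.0 and 46.4 CPM. In all 3 genes isotonic 2 and hypertonic 1 were the low libraries, and 0 of the 3 passed in rescue against isotonic. With number 1 alone all 3 were lower in rescue than in isotonic 1 (median log2 -0.30), and with number 2 alone all 3 were higher than in isotonic 2 (0.54), whereas all 8 enzyme genes were lower in both.

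**Figure D2:**
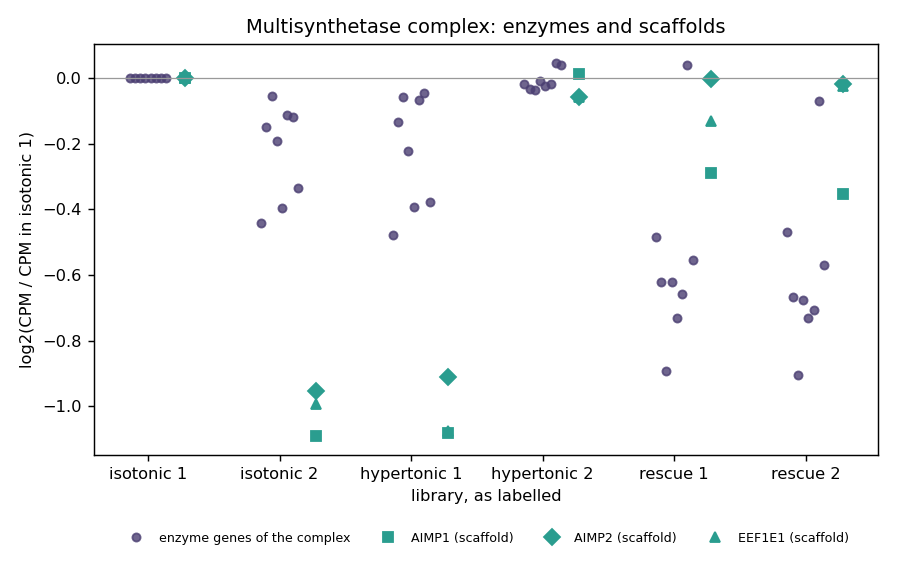
Level of the 8 enzyme genes (circles) and 3 scaffold genes (other symbols) of the multisynthetase complex in each library, as the log2 ratio of CPM by library total to isotonic 1. The scaffold genes sit lowest in isotonic 2 and hypertonic 1, near 35, 80 and 23 CPM, while 7 of the 8 enzyme genes, all but QARS, are lower in rescue than in isotonic 1.

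Among the cytosolic enzymes outside the complex, VARS is the valyl enzyme and binds elongation factor 1. It was at 227 and 224 CPM in isotonic, 231 and 224 CPM in hypertonic and 165 and 155 CPM in rescue (log2 -0.79, SE 0.12, edgeR, adjusted p = 0.0176). NARS, the asparaginyl enzyme, was at 131 and 127 CPM, 128 and 135 CPM, and 99.0 and 95.9 CPM in the same order (log2 -0.70, SE 0.10; edgeR, adjusted p = 0.0156). Both were level outside rescue and lower within it.

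Phenylalanyl-tRNA synthetase is built from the products of 2 genes, FARSA for the alpha and FARSB for the beta subunit. FARSA was at 28.4 and 18.3 CPM in isotonic, 19.4 and 29.6 CPM in hypertonic and 13.7 and 14.01 CPM in rescue. FARSB was at 109 and 56.5 CPM, 55.8 and 104 CPM, and 43.9 and 46.2 CPM. Rescue lay below all other libraries for both, yet neither passed against isotonic (edgeR, adjusted p = 0.0536 and 0.0997). With number 1 alone the falls were 2.40-fold and 2.82-fold, and with number 2 alone 1.71-fold and 1.62-fold. Per kilobase of merged exon the mean level of FARSB was 20.6 CPM and that of FARSA 8.45 CPM.

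SARS, the seryl enzyme, stood apart from its class. It was at 122 and 121 CPM in isotonic, 122 and 121 CPM in hypertonic and 137 and 136 CPM in rescue, above all other libraries by CPM. With TMM scaling the sign turned (log2 -0.13, SE 0.11; edgeR, adjusted p = 0.443), so no direction is given. QARS (-0.25), CARS (-0.43) and WARS (-0.46), next in the order of fold changes, did not pass either. CARS, the cysteinyl enzyme, was at 82.0 and 83.5 CPM in isotonic, 86.3 and 85.3 CPM in hypertonic and 74.9 and 75.8 CPM in rescue, and passed against hypertonic only. WARS, the tryptophanyl enzyme, is also known as an interferon-induced gene, and stood at 62.4 and 48.4 CPM in isotonic, 47.0 and 59.8 CPM in hypertonic and 50.9 and 47.7 CPM in rescue.

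**Figure D3:**
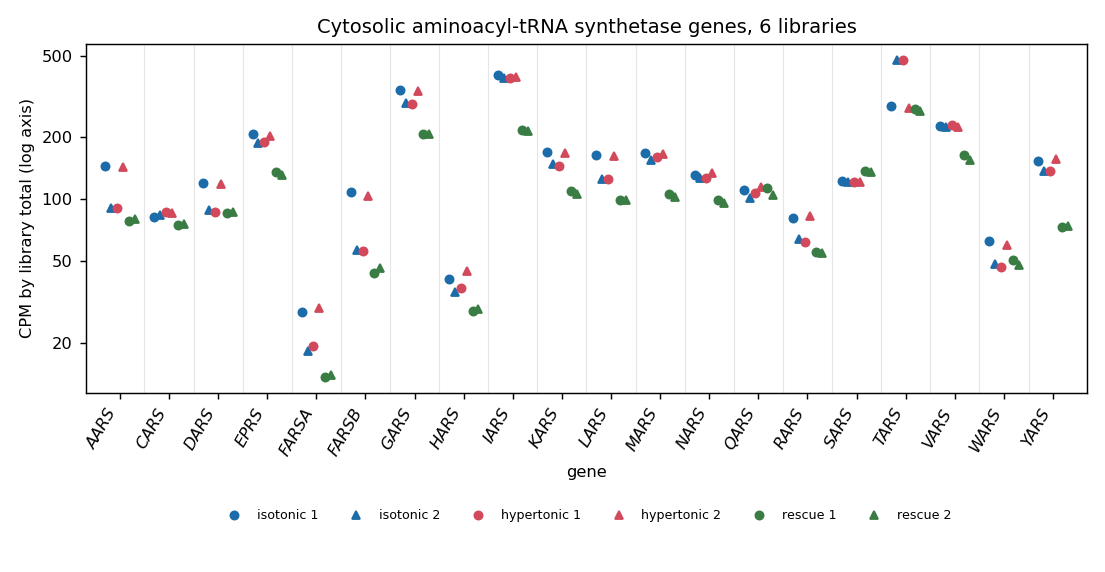
CPM by library total (log axis) of the 20 cytosolic genes in each of the 6 libraries, colour for the group and symbol for the replicate number. Rescue lies below the other 4 libraries in 16 genes, SARS is the only gene with rescue above them, and TARS is the only gene at least 1.5-fold higher in isotonic 2 and hypertonic 1 than in isotonic 1 and hypertonic 2.

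Rescue against hypertonic, which uses the same rescue libraries, gave 13 of 20 cytosolic genes lower and 0 higher (13.8% of all genes lower, 9.86% higher; edgeR, TMM) and 3 of 16 mitochondrial genes lower and 0 higher. The median log2 fold changes were -0.82 and -0.17. FARSA and CARS were called here in addition. With number 1 alone 20 cytosolic genes were lower, and 8 mitochondrial genes were lower and 6 higher (40.5% and 41.0% of all genes). With number 2 alone 19 cytosolic genes were lower, and 10 mitochondrial genes were lower and 1 higher (38.6% and 40.5%). As before, no member passed without hypertonic 1, hypertonic 2, rescue 1 or rescue 2. With library totals in place of TMM, 7 cytosolic and 2 mitochondrial genes were lower (6.03% of all genes).

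IARS2, YARS2 and VARS2 are the mitochondrial genes that fell. IARS2, the isoleucyl enzyme (chromosome 1, 220094102 to 220148041), was at 121 and 112 CPM in isotonic, 114 and 118 CPM in hypertonic and 69.5 and 68.2 CPM in rescue (log2 -1.06, SE 0.10; edgeR, adjusted p = 0.00924). YARS2, the tyrosyl enzyme (chromosome 12, 32727490 to 32755902), was at 97.8 and 102 CPM in isotonic, 99.6 and 98.7 CPM in hypertonic and 58.2 and 62.2 CPM in rescue (log2 -1.03, SE 0.13; edgeR, adjusted p = 0.0127). VARS2, the valyl enzyme, was at 59.3 and 66.0 CPM, 67.3 and 60.6 CPM, and 46.0 and 44.2 CPM (log2 -0.77, SE 0.17; edgeR, adjusted p = 0.0412). Their cytosolic counterparts IARS, YARS and VARS also fell. HARS2, LARS2, MARS2, NARS2 and RARS2, the counterparts of other cytosolic genes that fell, did not pass. Nor did EARS2 and PARS2, the glutamyl and prolyl counterparts of EPRS (edgeR, adjusted p = 0.118 and 0.416). The row of YARS2 overlaps that of DNM1L and the row of VARS2 that of GTF2H4.

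**Figure D4:**
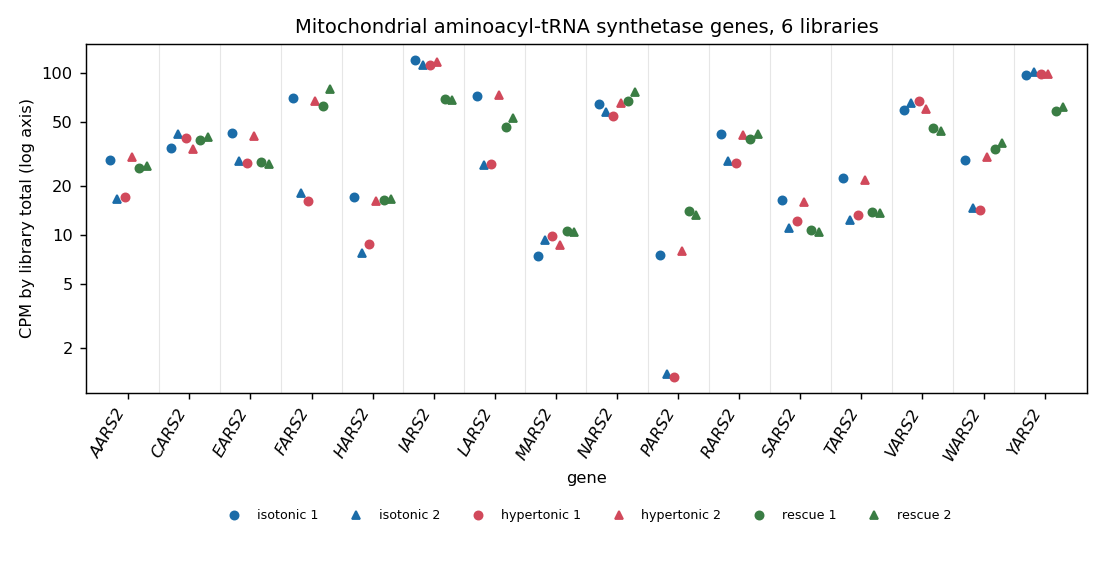
CPM by library total (log axis) of the 16 mitochondrial genes in each of the 6 libraries, colour for the group and symbol for the replicate number. IARS2, SARS2, VARS2 and YARS2 have both rescue libraries below the other 4, while PARS2 and FARS2 are at 1.32 and 16.3 CPM in hypertonic 1.

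The comparison of hypertonic with isotonic asks what raised sodium does to these transcripts. With the libraries grouped as labelled, a grouping that an exchange of labels would alter, 0 of 36 members were called by edgeR, 0 had an unadjusted p under 0.05, and DESeq2 and limma voom called 0; over all genes 0.0% were called by edgeR in either direction. Estimates ranged from -0.07 to 0.14 on the log2 scale, with SE of up to 1.07. The groups hold libraries that differ from each other, so the values are given within each replicate number.

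In number 1 the mitochondrial class was lower in the library labelled hypertonic, with a median log2 CPM ratio of -0.61 (all genes -0.17), and 9 of 16 were lower by at least 1.5-fold and 0 higher (28.2% and 17.2% of all genes). In number 2 the median was 0.53 (all genes 0.16), with 7 of 16 higher by at least 1.5-fold and 0 lower (27.5% and 17.9% of all genes). The cytosolic medians, -0.16 and 0.19, were close to those of all genes. In number 1, AARS and FARSB were lower by at least 1.5-fold and TARS was higher. These are ratios of 1 library to 1 library, with no replicate check. Where the spread was taken from the rescue libraries, edgeR called 7 cytosolic genes lower and 3 higher in number 1, and 10 mitochondrial genes lower and 4 higher (32.6% of all genes lower, 31.6% higher). In number 2 it called 1 cytosolic gene lower and 6 higher, and 3 mitochondrial genes lower and 10 higher (31.0% lower, 32.9% higher).

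AARS, the alanyl enzyme, was at 145 and 91.2 CPM in isotonic, 90.6 and 144 CPM in hypertonic and 78.0 and 80.4 CPM in rescue, with isotonic 2 and hypertonic 1 low as for FARSB. It did not pass in rescue against isotonic (log2 -0.86, SE 0.26; edgeR, adjusted p = 0.0829).

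**Figure D5:**
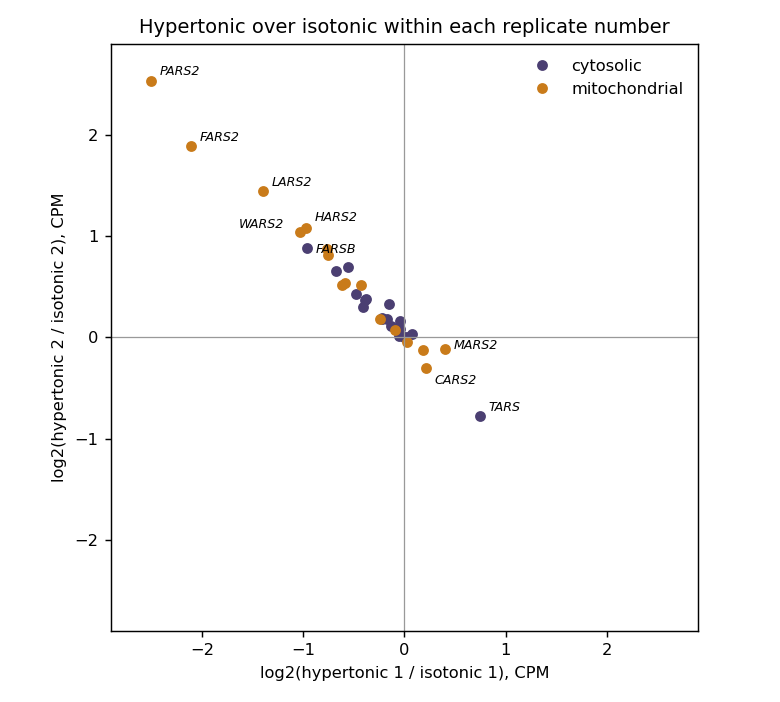
Log2 ratio of hypertonic over isotonic CPM in replicate number 1 (horizontal axis) and number 2 (vertical axis) for the 36 genes; a point is a gene. Most points lie along a falling diagonal, lower in number 1 and higher in number 2, with PARS2 (-2.51 and 2.54) at one end and TARS (0.74 and -0.78) at the other.

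PARS2, the mitochondrial prolyl enzyme and the member with the lowest mean CPM of its class (chromosome 1, 54756898 to 54764514), differed most. Its level was 7.50 and 1.38 CPM in isotonic, 1.32 and 7.98 CPM in hypertonic and 14.1 and 13.2 CPM in rescue. Its lowest library held 124 counts, well above the floor of 3. Rescue exceeded every other library, and with number 1 and number 2 alone it was 1.56-fold and 7.67-fold higher than isotonic. With all libraries the estimate did not pass (log2 1.38, SE 1.09; edgeR, adjusted p = 0.416).

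FARS2, the mitochondrial phenylalanyl enzyme, was at 70.3 and 18.3 CPM in isotonic, 16.3 and 67.6 CPM in hypertonic and 63.3 and 79.8 CPM in rescue. Its gene spans 568.1 kb, of which merged exons make up 0.85%. LARS2, the leucyl enzyme, was at 72.3 and 27.1 CPM in isotonic, 27.4 and 73.9 CPM in hypertonic and 46.8 and 53.1 CPM in rescue, between the high and the low libraries. WARS2, the tryptophanyl enzyme, was at 29.3 and 14.8 CPM, 14.4 and 30.4 CPM, and 34.1 and 37.4 CPM. In all 3, isotonic 2 and hypertonic 1 were the low libraries, 4.32-fold, 2.64-fold and 2.04-fold lower in hypertonic 1 than in isotonic 1. With FARS2, LARS2 and WARS2, PARS2 completes the 4 mitochondrial genes at least 2-fold lower in number 1 (14.6% of all genes). In number 2, HARS2 joined them as the fifth at least 2-fold higher (14.0% of all genes). With TMM-scaled CPM only FARS2, LARS2 and PARS2 reached 2-fold, 3 genes in either number.

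HARS and HARS2 encode the cytosolic and mitochondrial histidyl enzymes and lie head to head on chromosome 5, HARS from 140673904 to 140691862 on the minus strand and HARS2 from 140691426 to 140699318 on the plus strand. Their RefSeq promoter windows share 184 bases, at chr5:140691321-140691504, shown here on the plus strand because the RefSeq starts of both genes lie in it. The GENCODE model of HARS starts further upstream, outside this stretch.
HARS/HARS2: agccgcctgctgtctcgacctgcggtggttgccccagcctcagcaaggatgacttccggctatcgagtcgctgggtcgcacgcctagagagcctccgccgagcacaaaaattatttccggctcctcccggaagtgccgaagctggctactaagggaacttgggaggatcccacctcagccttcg
HARS was at 40.8 and 35.5 CPM in isotonic, 36.8 and 44.7 CPM in hypertonic and 28.7 and 29.3 CPM in rescue, lower than isotonic by 0.69 on the log2 scale (fold 1.61; edgeR, adjusted p = 0.0237). HARS2 was at 17.2 and 7.69 CPM in isotonic, 8.75 and 16.3 CPM in hypertonic and 16.4 and 16.7 CPM in rescue (edgeR, adjusted p = 0.836). HARS thus had its lowest libraries in rescue, and HARS2 in isotonic 2 and hypertonic 1. The rows overlap each other, WDR55 overlaps HARS and ZMAT2 overlaps HARS2, so both values are uncertain.

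TARS, the threonyl enzyme and the cytosolic member with the highest mean CPM (chromosome 5, 33440696 to 33469539), had a pattern opposite to that of FARSB and AARS. It was at 285 and 475 CPM in isotonic 1 and 2, 477 and 277 CPM in hypertonic 1 and 2, and 274 and 267 CPM in rescue 1 and 2. Isotonic 2 and hypertonic 1 were the high libraries, and the others lay within a narrow range. The ratio of hypertonic to isotonic was 1.68 in number 1 and 0.58 in number 2. Rescue did not pass against isotonic (log2 -0.81, SE 0.44; edgeR, adjusted p = 0.253), and was 1.23-fold lower with number 1 alone and 2.28-fold lower with number 2 alone. In the TARS window shown above, the match begins at position 3, counting the RefSeq start as 1.

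ATF4 itself was at 210 and 514 CPM in isotonic, 521 and 205 CPM in hypertonic and 216 and 206 CPM in rescue. It was high in the same libraries as TARS, in which AARS was lower than in isotonic 1 and hypertonic 2. Summed over 12 cytosolic synthetase genes listed as reported ATF4 targets, levels were 2266 and 2238 CPM in isotonic and 2242 and 2240 CPM in hypertonic. In rescue this sum was 1553 and 1533 CPM. Of the 12 cytosolic synthetase genes listed as reported ATF4 targets, 7 fell in rescue against isotonic and 0 rose. In the whole cytosolic class, which includes these 12, 11 of 20 fell and 0 rose (13.5% of all genes lower and 9.61% higher). Whether ATF4 has a part in the fall was not tested. Of the 28 other genes of the ATF4 list 6 fell and 5 rose (13.5% and 9.61% of all genes, edgeR with TMM). In rescue, PYCR1, of proline synthesis, was 3.84-fold lower (edgeR, adjusted p = 0.00834) and MTHFD2, of mitochondrial folate metabolism, 1.95-fold lower (adjusted p = 0.00923), while CHAC1, a glutathione-degrading enzyme, was 2.98-fold higher (adjusted p = 0.0186). STC2, a secreted glycoprotein, was at 2.76 and 2.87 CPM in rescue and below 0.1 CPM in the other 4 libraries.

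The remaining mitochondrial genes differed less between libraries. AARS2, EARS2, RARS2, SARS2 and TARS2 were each lower in isotonic 2 and hypertonic 1 than in isotonic 1 and hypertonic 2, with number 1 ratios between 0.59 and 0.74, and none passed in rescue. SARS2, the seryl enzyme, was at 10.7 and 10.5 CPM in rescue, below all 4 others, the lowest of which was 11.1 CPM; its row overlaps that of MRPS12. CARS2, MARS2 and NARS2 had number 1 ratios of 1.16, 1.32 and 0.85. MARS2, a gene with a single exon block, was at 7.46 and 9.38 CPM in isotonic, 9.86 and 8.66 CPM in hypertonic and 10.6 and 10.5 CPM in rescue.

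Levels between genes can be compared per kilobase of merged exon, with the limit that the counts may also hold intron reads. On this scale GARS had the highest mean over the 6 libraries, 67.3 CPM per kb, followed by TARS (59.9) and IARS (45.3), and HARS the lowest of the cytosolic class (4.58). The cytosolic median was 23.2 CPM per kb and the mitochondrial median 6.25, with YARS2 (40.1) and IARS2 (24.1) highest and MARS2 (3.12) and PARS2 (3.23) lowest among mitochondrial genes. Of the 36 genes, 12 overlap another counted gene, among them WARS with WDR25, EARS2 with UBFD1, CARS2 with ING1 and AARS2 with TMEM151B.

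Other genes of tRNA charging and related steps were taken from a list, of which 11 of 12 names were measured. In rescue against isotonic 2 of these fell and 0 rose (13.5% and 9.61% of all genes), so the count lower was near the share of all genes. PTRH2, a peptidyl-tRNA hydrolase, was at 608 and 540 CPM in isotonic, 528 and 608 CPM in hypertonic and 356 and 359 CPM in rescue (1.96-fold lower, edgeR, adjusted p = 0.00891). GATC, a subunit of the mitochondrial amidotransferase that makes glutaminyl-tRNA, was 1.40-fold lower (edgeR, adjusted p = 0.0449). For PTRH2 both rescue libraries lay below the other 4.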

How the data were processed

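The authors deposited 1 table of raw counts per gene for each library, whole numbers with no normalization. The submitters' processing notes name GRCh38 (hg38), with TopHat2, Bowtie2, bedtools and bcl2fastq. Their versions, the annotation and the strand setting are not stated there, so reads of overlapping genes may not be told apart. Groups and replicate numbers came from the sample labels.

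Levels are CPM by library total. All 6 libraries entered one edgeR 4.0.16 quasi-likelihood model (R 4.3.3) with a mean per group, after filterByExpr, TMM scaling and robust dispersion, over 18208 genes, with two-sided Benjamini-Hochberg adjusted p-values and a threshold of 0.05. The fit had 3 residual degrees of freedom and a biological coefficient of variation of 38.4%. The steps were run on simulated counts of independent libraries. Those lack the crossed likeness of the isotonic and hypertonic libraries, so the run checks the steps and not their fit to these data. Alternatives were RLE, upper quartile and total scaling, DESeq2 1.42.0, limma voom 3.58.1, no filter, fewer groups, a replicate block and left-out libraries. Ratios within a replicate number and the range rule used the 17388 genes with at least 100 summed counts and carry no test. Coordinates, exons and overlaps came from GENCODE 29 (GRCh38) and promoter windows from RefSeq (GRCh38.p14).

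The members, lists, tests and the rule for named genes were chosen with earlier results of these data known. In the tRNA processing list an outdated symbol was replaced by RTRAF after results had been seen, which added 1 measured gene. One gene of the tRNA charging list is not reported here and was left out of its counts. Values are given for members that passed in a rescue comparison (at most 8 a class), GARS, KARS, HARS and HARS2, the extremes of mean level, and the 4 of each class that differed most between replicate numbers; the others named were chosen after their values were seen.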

Additional observations from a re-analysis of the deposited data

How the results depend on the processing

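Same-numbered isotonic and hypertonic libraries deviated in opposite directions (Pearson r over 17388 genes -0.96). Rescue libraries deviated with neither (-0.03 with isotonic and 0.04 with hypertonic), so the numbers give no matched pairs. The hypertonic to isotonic ratios of number 2 are thus near the reverse of those of number 1. Results within number 1 and within number 2 are not separate support. With the replicate block, 0 cytosolic and 0 mitochondrial members were lower in either rescue comparison, as in the genome-wide test, where 4896 and 4984 genes had an unadjusted p under 0.05 against isotonic and hypertonic. Without 1 library of the groups compared, where 0 genes passed, these were 3652 to 6572 and 3675 to 6631. With a crossed replicate block, chosen after seeing the data, 0 members were called between hypertonic and isotonic. Leaving out 1 library gave 0 to 11 cytosolic members lower in either rescue comparison, and 0 to 2 mitochondrial members lower against isotonic and 0 to 3 against hypertonic. With number 1 alone, rescue against isotonic gave 19 cytosolic lower, 11 mitochondrial lower and 2 higher; rescue against hypertonic gave 20, 8 and 6; hypertonic against isotonic gave 7 cytosolic lower and 3 higher, 10 mitochondrial lower and 4 higher. With number 2 alone these were 20, 7 and 6, then 19, 10 and 1, then 1, 6, 3 and 10. DESeq2 called 17 cytosolic members lower against isotonic (20.7% of all genes), and total scaling 7 against hypertonic (6.03%). TMM-scaled CPM gave class sums of 3274, 3282 and 1873 (cytosolic; isotonic, hypertonic, rescue) and 526 (mitochondrial, rescue, both libraries below the other 4), 1 cytosolic member lower in number 1 and 1 higher in number 2 by 1.5-fold, and 0 cytosolic and 1 mitochondrial above the range. The more specific motif was in 0 mitochondrial windows. Of 416 alternative values for 13 named genes in the rescue comparisons, 288 stayed on the same side of the threshold, 118 lost and 10 gained the call, and 0 turned direction. These genes were the called members with the smallest adjusted p (at most 8 a class), with TARS and FARSB. Most were thus chosen for a fall in these data, so their unchanged direction gives no support. SARS, whose sign turned with the scaling, was not among them. Counting error is small at these levels. The limits are 2 libraries a group and the crossed likeness of the isotonic and hypertonic libraries, which more libraries of the same kind would not remove.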

Other observations

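Genes that process tRNA were also counted from a list. Of 26 measured, 8 fell in rescue against isotonic and 0 rose (13.5% and 9.61% of all genes; edgeR, TMM). XPOT, the export receptor of tRNA, was at 181 and 143 CPM in isotonic, 141 and 177 CPM in hypertonic and 81.6 and 80.5 CPM in rescue (2.44-fold lower, edgeR, adjusted p = 0.0094). TSEN54, a subunit of the tRNA splicing endonuclease, was 2.87-fold lower (adjusted p = 0.0161) and RTCB, the tRNA ligase, 1.84-fold lower (adjusted p = 0.0108). ELAC1, a tRNA 3′ end processing enzyme, chosen after its values were seen, was at 7.39 and 2.42 CPM in isotonic, 2.80 and 7.11 CPM in hypertonic and 23.3 and 24.2 CPM in rescue, where the rescue libraries are the highest.

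Among 28 tRNA modification genes 6 fell and 0 rose, beside the same 13.5% and 9.61% of all genes. NSUN2, a tRNA cytosine methyltransferase, was at 157 and 183 CPM in isotonic, 172 and 155 CPM in hypertonic and 79.5 and 81.0 CPM in rescue (2.61-fold lower, edgeR, adjusted p = 0.014). Of 10 translation elongation factor genes 2 fell (13.5% of all genes), both mitochondrial: GFM2 (1.52-fold lower, adjusted p = 0.0323) and TUFM (1.43-fold lower, adjusted p = 0.0438). EIF2AK4, the GCN2 kinase that senses uncharged tRNA, was 1.88-fold lower (edgeR, adjusted p = 0.048), at 103 and 67.0 CPM in isotonic, 70.4 and 98.4 CPM in hypertonic and 52.9 and 57.1 CPM in rescue; 2 of the 4 kinases of its list fell (13.5% of all genes), the other being EIF2AK1.

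The rank correlation between gene span and the difference between replicate numbers was weak. Over the 36 genes the Spearman correlation of gene span with the mean of the number 1 log2 ratio and the reversed number 2 ratio was -0.13, a description over genes that share libraries. Among the members that differed most, PARS2 spans 7.6 kb, and FARS2, LARS2 and WARS2 span 568.1, 160.9 and 109.5 kb. A part of gene length in this difference was not tested.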
